A study of Mus musculus with 48 samples.

Results

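The striated muscle sarcomere genes are a list of 39 genes for the contractile units of skeletal and heart muscle and for the calcium store and creatine kinase that serve them. They were chosen by name from knowledge of muscle, with earlier results of these arrays known, and each was read as the probe set with the highest mean among those that carry its symbol alone. Of the 39, 38 had such a probe set, out of 22180 genes that had one, and Mybph was not analysed here. The 38 comprise 16 genes of skeletal muscle, 9 of the heart and 13 that both muscles use. In these aortas they were read for 3 things: their level on each array, how far they moved together between arrays of 1 group, and how they differed between knockout and wild type and between ascending and descending aorta.

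The arrays compared mouse aorta in 3 knockout models of elastic fibre formation, each with its own wild type. The Eln model lacks elastin and the Efemp2 model fibulin-4, both on C57BL/6, and the Lox model lacks lysyl oxidase, on B6 albino. Knockout (KO) and wild-type (WT) ascending aorta (AA) and descending aorta (DA) were taken before birth, on embryonic day 17.5 (E17.5), or just after it, on postnatal day 1 (P1). That made 24 groups of 2 arrays, 48 in all, with like aortic tissue pooled in eights for each array. The labels give no conditional allele and no Cre driver for any knockout. All values are log2 signals, and differences are KO less WT or DA less AA. Errors are standard errors (SE) of the limma fit, and "passed" means a Benjamini-Hochberg adjusted p of limma under 0.05 over all 15337 genes tested. These p values measure the spread between pools, part of which may be technical, and 2 arrays a group limit the precision.

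In striated muscle, thick filaments of myosin slide along thin filaments of actin. Calcium released from the sarcoplasmic reticulum binds troponin C, which moves tropomyosin off actin through troponin I and troponin T. Skeletal and heart muscle build these parts largely from different genes, and within the heart the atria and ventricles use different myosin chains. Smooth muscle of the aortic wall has no sarcomeres and no troponin switch.

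Upstream sequences are shown for the troponin C pair and for a pair of myosin light chains, since the comparisons below turn on them. Tnnc1 encodes the troponin C of slow skeletal and heart muscle and Tnnc2 that of fast skeletal muscle. Myl3 encodes the ventricular and slow skeletal essential light chain and Myl7 the atrial regulatory light chain. Each window holds the 250 bases before the annotated start in RefSeq, build GRCm38.p6, written 5′ to 3′ on the strand of the gene. Capitals mark matches, on either strand, to a CArG box, a MEF2 site, the MCAT core CATTCC, the E-box CANNTG or the AP-1 site TGANTCA.
Tnnc1 (chr14:31208062-31208311, plus strand): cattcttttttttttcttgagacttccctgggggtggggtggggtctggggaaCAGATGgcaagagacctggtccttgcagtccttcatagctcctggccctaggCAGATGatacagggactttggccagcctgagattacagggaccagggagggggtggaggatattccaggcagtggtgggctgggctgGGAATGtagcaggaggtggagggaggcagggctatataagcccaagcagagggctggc
Tnnc2 (chr2:164779735-164779984, minus strand): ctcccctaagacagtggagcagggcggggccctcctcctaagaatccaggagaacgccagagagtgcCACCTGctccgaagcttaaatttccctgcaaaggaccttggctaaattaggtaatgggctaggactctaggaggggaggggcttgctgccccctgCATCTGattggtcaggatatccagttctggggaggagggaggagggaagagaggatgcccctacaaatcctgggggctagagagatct
Myl3 (chr9:110763428-110763677, plus strand): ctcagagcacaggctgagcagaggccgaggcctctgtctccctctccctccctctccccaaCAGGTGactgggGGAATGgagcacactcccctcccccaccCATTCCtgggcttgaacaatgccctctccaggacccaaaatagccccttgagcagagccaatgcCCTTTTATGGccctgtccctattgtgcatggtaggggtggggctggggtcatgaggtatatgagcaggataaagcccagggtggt
Myl7 (chr11:5898783-5899032, minus strand): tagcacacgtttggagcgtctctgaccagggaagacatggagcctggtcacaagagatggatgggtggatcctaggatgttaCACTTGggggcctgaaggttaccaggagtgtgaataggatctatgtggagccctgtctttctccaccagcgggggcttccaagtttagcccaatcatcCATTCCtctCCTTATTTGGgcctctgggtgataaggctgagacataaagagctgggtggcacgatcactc

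The Tnnc1 window held 2 E-boxes and 1 MCAT core, and the Tnnc2 window 2 E-boxes. Myl3 and Myl7 each had 1 CArG box. RefSeq upstream windows were at hand for 32 of the 39 members, 40 windows in all. A CArG box was present in 8 of these 40 windows, from 7 genes, against 1.47% of all 32851 windows of the same length. A MEF2 site was present in 5 of 40, against 2.92%, and an MCAT core in 11 of 40, against 12.64%. E-boxes occurred in 33 of 40 and in 66.22% of all windows, and AP-1 sites in 2 of 40 and in 6.75%. A match describes the letters only, and no match says nothing of a factor.

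The labelled tissue was borne out by smooth muscle genes. Acta2 ran from 10.86 to 12.75 and Myh11 from 8.70 to 11.12 over the 48 arrays, and all 14 smooth muscle genes listed exceeded the detection level given below on at least 24 of them. As a check of the labels, Eln fell by 6.13 in Eln KO (SE 0.22, adjusted p = 2.48e-19) and Lox by 2.66 in Lox KO (SE 0.16, adjusted p = 1.47e-12). Efemp2 has no probe set of its own, so that deletion was not checked. The median of all probe sets of an array lay between 3.71 and 3.82 in the Lox E17.5 arrays, between 4.85 and 5.35 in the Lox P1 arrays and between 4.35 and 4.89 in the rest, so levels are not compared between models or stages. A raised background marked 4 arrays, all WT at P1: both of Eln DA, and replicate 2 of AA and of DA in the Efemp2 model. Over all genes tested the median difference was 0.27 in the Eln DA P1 pair, -0.20 in Lox AA P1 and -0.17 in Lox DA P1.

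Striated muscle transcripts were present in these aortas. A member was counted as detected on an array where it exceeded the 95th percentile of 1394 olfactory and vomeronasal receptor genes on that array. By this measure 8 of the 38 were detected on all 48 arrays, and 7 on fewer than 24. The share of all genes at either level was not counted. The 8 were Acta1, skeletal actin, Actc1, cardiac actin, the troponins Tnnc1, Tnni2, Tnni3 and Tnnt2, the atrial light chain Myl7, and Myom1, which links thick filaments at the M-band. At the other end, Myoz1, a Z-disc protein of fast muscle, was detected on 0 of 48 arrays and Mybpc2, fast myosin-binding protein C, on 2. Both stayed below the level required for a test, which left 36 members tested.

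Between the 2 arrays of a group, most skeletal muscle members rose or fell together. The spread of a gene was taken as the SD, over the 24 groups, of replicate 1 less replicate 2 after removing the median of all genes. It had a median of 0.71 over the 36 tested members and of 0.36 over all tested genes, and 33 of the 36 lay above the latter. Myh8, the perinatal skeletal myosin heavy chain, had the widest spread at 1.74. Ryr1, the calcium release channel of skeletal muscle, had the narrowest at 0.20.

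Each skeletal member was set against the median of the other skeletal members over these 24 differences. Pearson's r was 0.8 or more for 9 of the 16: Acta1 (0.90), Tnnt3 (0.89), Tnni2 (0.89), Myl1 (0.89), Neb (0.88), Myh8 (0.87), Mybpc1 (0.87), Tnnc2 (0.85) and Myh3 (0.83). These encode skeletal forms of actin, troponin, myosin, nebulin and myosin-binding protein C. Actn3 (0.09) and Ryr1 (-0.09) did not follow them. All 9 heart members had r above 0.5 with the other heart members, led by Myl7 (0.87), Myl4 (0.84), the atrial essential light chain, Tnni3 (0.81), cardiac troponin I, and Myh6 (0.80), the alpha myosin heavy chain. Among genes of both muscles, Tnnc1 followed the heart members (0.84) more closely than the skeletal members (0.47). Myl2 did not follow the heart (0.19) or the skeletal members (-0.05). Myl3 (0.35 and 0.21) and Myh7 (0.36 and 0.34) followed the heart and the skeletal members weakly. Genes share each array, so these values describe the arrays and carry no test.

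**Figure D1:**
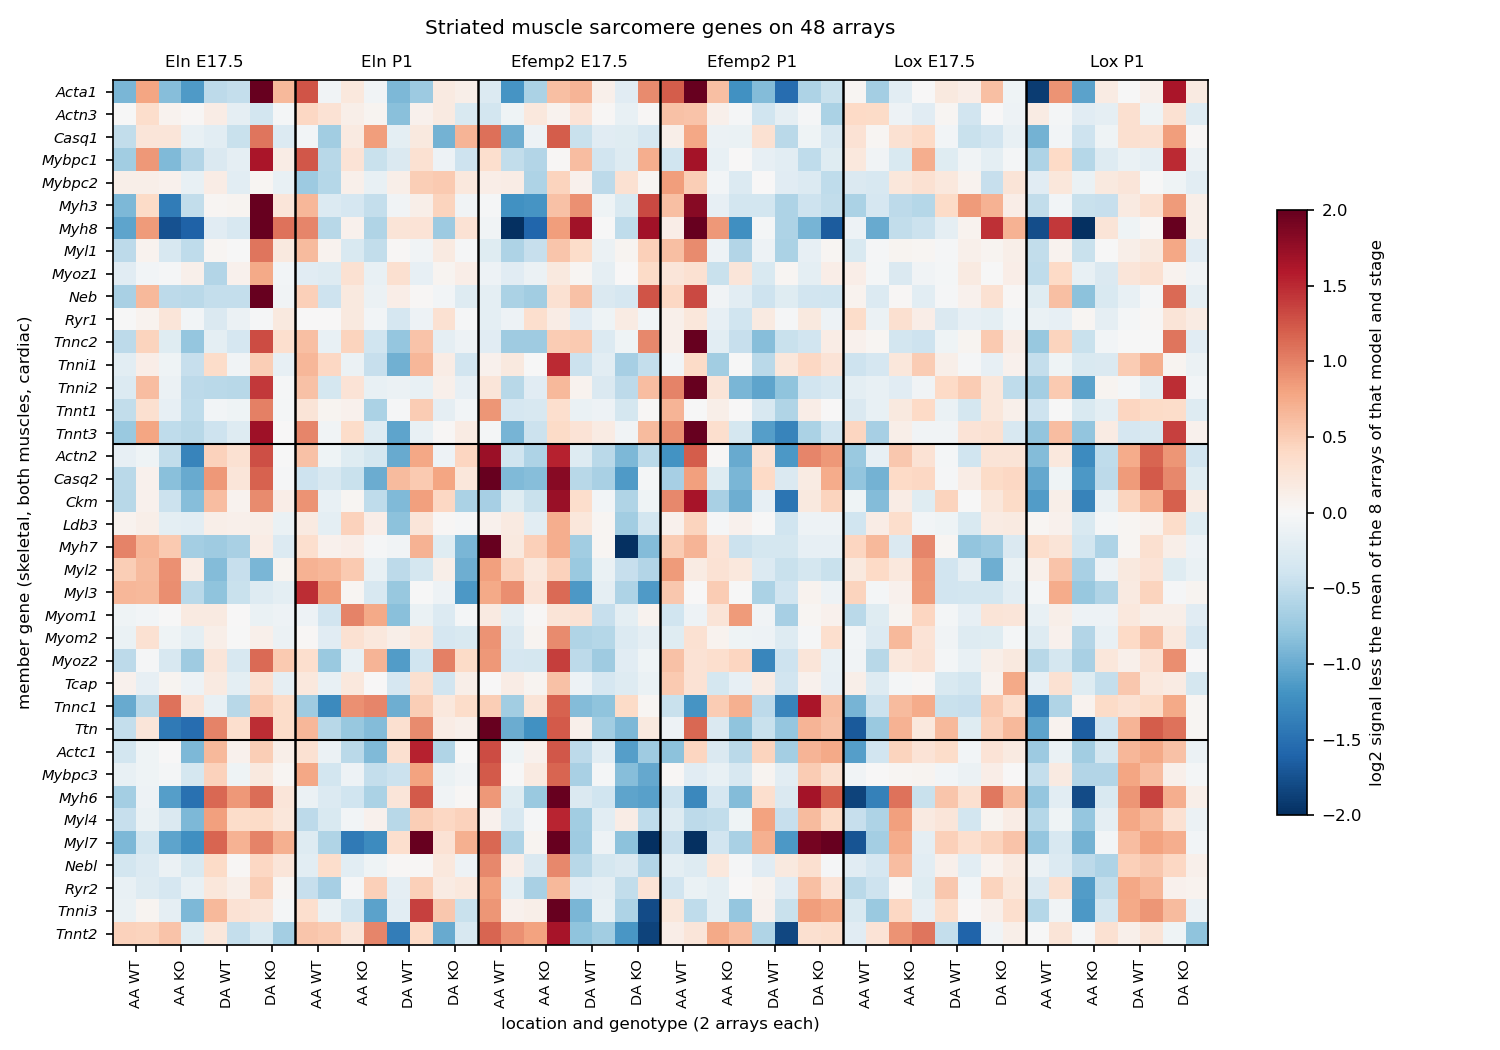
Log2 signal of the 38 members (rows: skeletal, both muscles, heart) on the 48 arrays (columns, 2 per location and genotype), less the mean of the 8 arrays of that model and stage. Single arrays stand out as columns: 12 of 16 skeletal members were over 0.5 above that mean on replicate 1 of Eln KO DA at E17.5, and 9 of 9 heart members on replicate 2 of Efemp2 KO AA at E17.5. The share of all genes was not counted.

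Members of a class stood high together on some single pools. On replicate 1 of Eln KO DA at E17.5, 12 of 16 skeletal members lay more than 0.5 above the mean of their model and stage, at a median of 1.19. Replicate 2 of Efemp2 WT AA at P1, an array of raised background, had 11 of 16 (median 1.13). Replicate 1 of Lox KO DA at P1 had 10 of 16 (median 0.84). On replicate 2 of Efemp2 KO AA at E17.5 all 9 heart members were raised, at a median of 1.52. The share of all genes that lay more than 0.5 above on these arrays was not counted. Acta1 showed the size of such gaps: it read 10.11 and 8.32 on the Eln KO DA arrays at E17.5, and 6.32 and 9.12 on the Lox WT AA arrays at P1. In both groups the gap between replicates was wider than most knockout differences described below. These arrays stayed in the fits unless stated.

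Genes outside the list moved with the members. The skeletal median correlated over the 24 replicate differences with that of 22 other skeletal muscle genes (r = 0.86, rho = 0.87, r = 0.83 without the 2 farthest groups). The heart median correlated with that of 19 other heart genes (r = 0.76, rho = 0.64, r = 0.56 without the 2 farthest). Between the skeletal and heart medians r was 0.52 and rho 0.48, with r = 0.42 without the 2 farthest. Smooth muscle genes gave r = 0.31 with the skeletal and r = 0.42 with the heart median (rho 0.39 and 0.31), and endothelial genes r = 0.13 and r = 0.20 (rho 0.18 and 0.25). Without the 2 farthest groups these became 0.53, 0.37, 0.19 and 0.11. Blood and thymus genes ran the other way, with r = -0.41 and r = -0.55 (rho -0.35 and -0.52, and -0.31 and -0.57 without the 2 farthest). In all, 11 such relations were computed. Of the muscle stem cell and myoblast genes 3 of 12 were detected on at least 24 arrays, and Musk, Myf6, Pax3 and Chrna1 on fewer than 5. More muscle cells in a pool and more muscle RNA per cell cannot be told apart on these arrays.

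**Figure D2:**
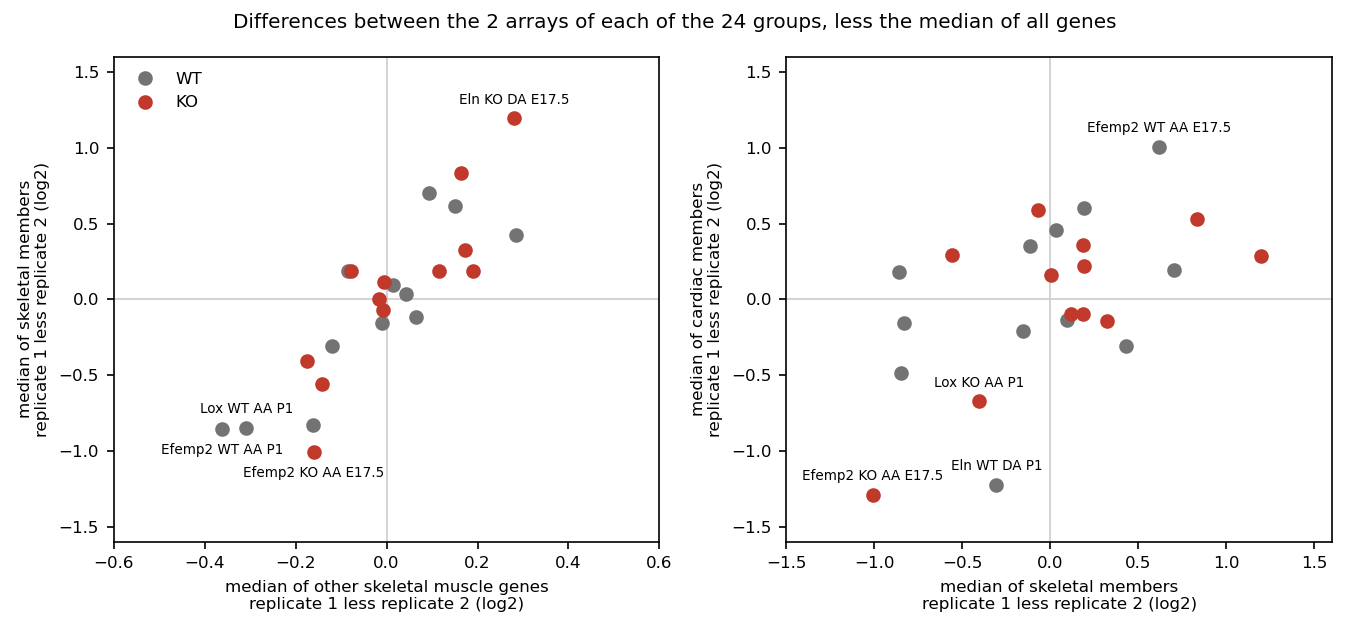
Each point is 1 of the 24 groups, with replicate 1 less replicate 2 in log2 units, less the median of all genes. Left, the median of the 16 skeletal members against that of 22 other skeletal muscle genes (r = 0.86); right, the median of the 9 heart members against the skeletal median (r = 0.52). The Efemp2 KO AA E17.5 group lies lowest on both member axes.

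The question of the knockout comparison was how loss of each elastic fibre protein changed the late embryonic and newborn aorta. Among the sarcomere genes 1 of 36 passed in each model when the 4 pairs of the model were averaged, and it was the same gene, Tnnc1, higher in KO. Over all genes the share called higher was 2.74% in Eln, 3.14% in Efemp2 and 0.561% in Lox KO. No member passed as lower, where 0.541%, 0.665% and 1.00% of all genes did. The count of 1 in 36 is near the background in Eln and Efemp2 KO. At an unadjusted p under 0.05, 4 members were higher and 3 lower in Eln KO, 3 higher and 1 lower in Efemp2 KO, and 1 higher in Lox KO, where 15.7%, 16.2% and 14.6% of all genes differed at that level. The median difference of the 36 members was -0.06 (Eln), -0.04 (Efemp2) and 0.10 (Lox), and that of all genes tested was 0.06, 0.04 and -0.09.

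Tnnc1 was named for this pattern when the genes were chosen, so its values are a description and its p is no independent support. In the Eln model at E17.5 it read 9.32 and 9.80 in WT AA and 11.41 and 10.61 in KO AA, and 10.19 and 9.78 in WT DA and 10.86 and 10.69 in KO DA. At P1 it read 8.35 and 7.79 in WT AA and 9.97 and 10.03 in KO AA, and 8.07 and 9.54 in WT DA and 9.27 and 9.42 in KO DA. Both KO arrays were above both WT arrays in all of these pairs but DA at P1, where 1 WT array was the highest of the 4.

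In the Efemp2 model at E17.5 Tnnc1 read 10.70 and 9.51 in WT AA and 10.46 and 11.38 in KO AA, and 9.34 and 9.40 in WT DA and 10.58 and 10.25 in KO DA. At P1 the values were 8.02 and 7.28 in WT AA and 8.97 and 9.18 in KO AA, and 7.94 and 7.14 in WT DA and 10.09 and 9.08 in KO DA. The groups overlapped only in AA at E17.5. In the Lox model it read 7.65 and 8.15 in WT AA and 9.21 and 9.33 in KO AA at E17.5, and 8.14 and 8.12 in WT DA and 9.11 and 8.94 in KO DA. At P1 it read 8.75 and 9.49 in WT AA and 10.17 and 10.47 in KO AA, and 10.40 and 10.47 in WT DA and 10.84 and 10.13 in KO DA. Only the last of these pairs overlapped.

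Averaged over the 4 pairs, Tnnc1 was 1.18 higher in Eln KO (SE 0.21, adjusted p = 0.000473), 1.34 higher in Efemp2 KO (SE 0.21, adjusted p = 8.16e-05) and 0.88 higher in Lox KO (SE 0.21, adjusted p = 0.0196). The KO mean was higher in 12 of 12 pairs, as it was for 0.711% of all genes tested. Both KO arrays exceeded both WT arrays in 9 of 12 pairs, a count that 0.809% of all genes reached or passed. The call in Lox KO was lost when array background was a covariate (0.68) and when any of 6 of the 16 Lox arrays was left out (0.78 to 0.87 without them), namely replicate 1 of WT AA at E17.5, of WT AA and WT DA at P1, of KO DA at E17.5 and of KO DA at P1, and replicate 2 of KO AA at P1. The calls in Eln and Efemp2 KO held in all 58 alternatives.

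**Figure D3:**
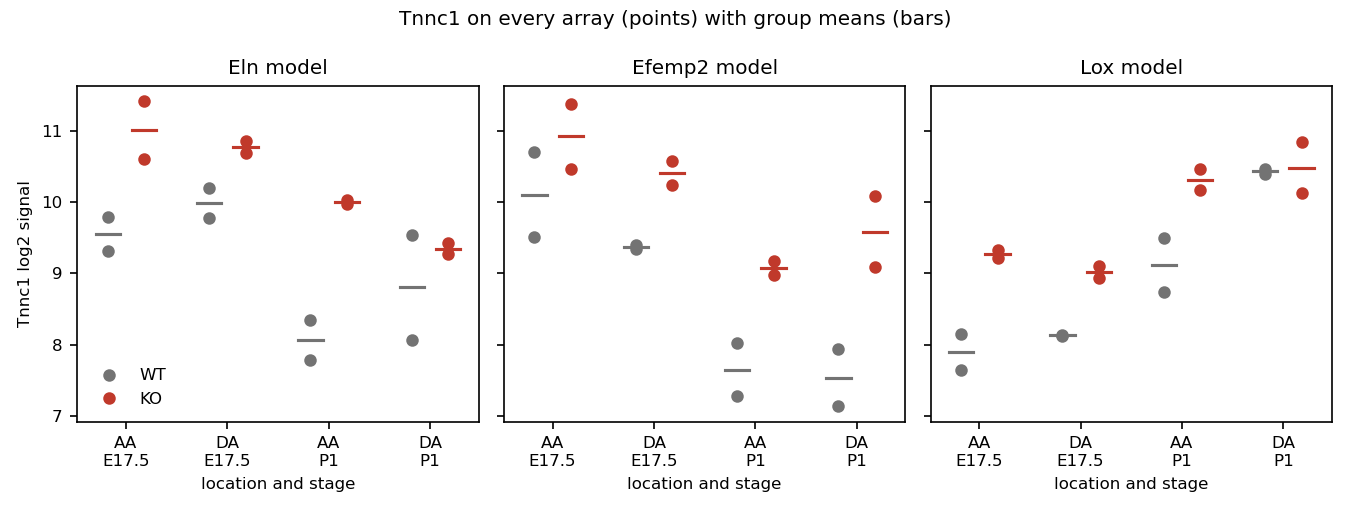
Tnnc1 log2 signal on every array (points) by location and stage in the Eln, Efemp2 and Lox models, WT in grey and KO in red, with bars at the means of 2 arrays. The KO mean is above the WT mean in 12 of 12 pairs, and both KO points are above both WT points in 9. Levels in different models or stages are not comparable.

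Tnnc1 departed from the genes it followed between replicates. Over the 24 replicate differences it correlated with the median of the 21 other heart or shared members (r = 0.78, rho = 0.73, r = 0.71 without the 2 farthest groups) and less with smooth muscle genes (r = 0.44, rho = 0.30, r = 0.36). Its KO effect nonetheless exceeded the median effect of those 21 genes in 12 of 12 pairs, by 0.52 in Lox DA P1 to 2.26 in Eln AA P1. It exceeded the effect of all 37 other members in Eln AA at both stages, Efemp2 DA at E17.5, Efemp2 AA at P1 and Lox AA at P1. With the medians of the other skeletal and other heart genes, outside the list, as covariates, Tnnc1 was 1.16, 1.23 and 1.06 higher in Eln, Efemp2 and Lox KO. Without covariates, its fast skeletal counterpart Tnnc2 differed by 0.09 (SE 0.27), -0.06 (SE 0.27) and 0.06 (SE 0.27), none of which passed. With those covariates Tnnc2 was 0.72 higher in Lox KO, which passed (adjusted p = 0.0235). The genes on either side of Tnnc1 on chromosome 14 did not pass: Nisch differed by 0.29 (adjusted p = 0.0576), 0.02 and 0.14, and Sema3g by 0.33 (adjusted p = 0.0786), 0.21 and -0.10.

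The other thin filament genes stayed below the threshold in the averaged comparisons. Of 12 tested in this role, 1 rose in each model, which was Tnnc1, and 0 fell. Actc1, cardiac actin, differed by -0.58 in the Eln model (SE 0.22, adjusted p = 0.168), while the Efemp2 and Lox models gave 0.03 and 0.15. Tnni3 gave -0.55 (SE 0.26, adjusted p = 0.294), 0.19 and -0.08 in the same order. For Tnnt2, cardiac troponin T, the differences were -0.19, 0.37 and 0.36, and Tnni1, slow skeletal troponin I, gave -0.26, 0.08 and 0.00.

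Of 11 thick filament genes tested 0 passed in any model. Myl7 spanned the widest range between models, at -0.56 (SE 0.35) in Eln, 0.84 (SE 0.35, adjusted p = 0.2) in Efemp2 and 0.32 (SE 0.35) in Lox KO. Single arrays weighed on it: in Efemp2 AA at E17.5 it read 9.43 and 7.67 in WT and 8.34 and 11.40 in KO. KO replicate 2 was the array on which all 9 heart members stood high. Without it Myl7 differed by 0.46 and Myh6 by -0.03 in Efemp2 KO, and without replicate 1 of the same group Myl7 (1.22, adjusted p = 0.0248) and Myh6 (0.88, adjusted p = 0.0378) passed. Myh7, the beta myosin heavy chain of ventricle and slow muscle, had a KO mean below WT in 10 of 12 pairs. How many of all genes did so was not counted. The averaged differences of Myh7 were -0.34, -0.56 and -0.32 (SE 0.23 each, adjusted p = 0.526, 0.197 and 0.537). In Efemp2 it passed without WT AA replicate 2 at E17.5 (-0.82, adjusted p = 0.0153) and differed by -0.31 without replicate 1 of that group. Myl3 differed by -0.40, 0.03 and -0.25.

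Neither the 8 tested genes of the Z-disc, titin and M-band nor the 5 of the calcium store and energy supply passed. Myoz2, a calcineurin-binding Z-disc protein, had a higher KO mean in 10 of 12 pairs and differed by 0.64 (SE 0.22, adjusted p = 0.117), 0.39 and 0.33. Myom1 differed by 0.35 in Eln (SE 0.12, adjusted p = 0.123), 0.35 in Efemp2 (SE 0.12, adjusted p = 0.115) and 0.17 in Lox KO. It passed in Eln KO without WT DA replicate 2 at P1 (0.43) and in Efemp2 KO without WT DA replicate 1 at E17.5 (0.44) or at P1 (0.42). Ryr1 also had a higher KO mean in 10 of 12 pairs, with differences of 0.19, 0.03 and 0.13. For Myoz2 and Ryr1 alike, the share of all genes with 10 of 12 such pairs was not counted.

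Striated muscle genes outside the list gave few calls. Of 17 other heart genes tested, Pln, the inhibitor of the calcium pump of the sarcoplasmic reticulum, fell by 0.92 and Corin, the protease that activates natriuretic peptide, by 0.74 in Eln KO. In Efemp2 KO Nppb, which encodes B-type natriuretic peptide, rose by 0.87 and Gja5, a gap junction protein, fell by 0.42. Corin fell by 0.48 in Lox KO. Of 18 other genes of both muscles, Hspb7, a small heat shock protein of muscle, rose by 0.59 in Eln KO and Hrc, a calcium-binding protein of the reticulum, fell by 0.51 in Efemp2 KO. Smooth muscle genes gave 2 rises among 14 in Eln KO, Smtn (0.60) and Cald1 (0.46), which encode smoothelin and caldesmon, and 1 fall in Efemp2 KO, Synpo2 (-0.39). Of 18 other skeletal genes and 7 muscle stem cell and myoblast genes 0 passed in any model. The median level of the other heart genes, less the mean of model and stage, ran from -0.38 to 0.99 in KO and from -0.43 to 0.35 in WT arrays. That of the smooth muscle genes ran from -0.12 to 0.62 and from -0.67 to 0.08. Their part in the Tnnc1 difference was not tested.

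Taken pair by pair, members gave 9 calls over the 12 pairs, all of them at P1 in the Eln and Efemp2 models. In Eln AA at P1, where 1.81% of all genes passed, Tnnc1 rose by 1.93 (SE 0.41, adjusted p = 0.0104) and Myom1 by 1.12 (SE 0.24, adjusted p = 0.0117). Myom1 read 7.90 and 7.62 in WT and 9.0 and 8.76 in KO, without overlap, though the share of all genes without overlap was not counted. Leaving out WT replicate 2 or KO replicate 1 ended both calls, and leaving out KO replicate 2 ended that of Tnnc1 (1.66 to 2.21 for Tnnc1 and 0.98 to 1.26 for Myom1 over all arrays left out in turn). In Efemp2 DA at P1, where 1.55% passed, Tnnc1 rose by 2.05 (SE 0.41, adjusted p = 0.00637) and no other member passed. That call was lost without WT replicate 2 or KO replicate 1 (1.55 to 2.56 over the arrays left out).

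In Eln DA at P1 25.5% of all genes passed, so that 2 of 36 members is below the background. Myoz2 rose by 1.46 (SE 0.44, adjusted p = 0.0161), from 5.37 and 6.09 in WT to 7.50 and 6.87 in KO. Actc1 fell by 1.24 (SE 0.45, adjusted p = 0.0407), from 8.71 and 9.94 to 7.78 and 8.38. Less the median of all genes in that pair, the differences were 1.19 and -1.51. Both WT arrays had a raised background, and with background as a covariate neither gene passed (1.68 and -2.08). Leaving out WT replicate 1 or KO replicate 1 ended the call of Myoz2 (1.10 and 1.15). Leaving out WT replicate 2, KO replicate 1 or KO replicate 2 ended that of Actc1 (-0.63, -0.94 and -1.54).

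In Efemp2 AA at P1, where 3.70% of all genes passed, 3 members were lower in KO and 1 higher. Of the 14 skeletal members tested 2 were lower, with a median difference of -1.06 over the 14. Ckm, muscle creatine kinase, read 8.09 and 8.78 in WT and 6.47 and 6.15 in KO, a fall of 2.12 (SE 0.58, adjusted p = 0.0344). Tnni2, fast troponin I, read 8.29 and 9.51 in WT and 7.55 and 6.38 in KO, a fall of 1.94 (SE 0.51, adjusted p = 0.0311). Myl1, a skeletal essential light chain, read 6.58 and 6.91 in WT and 5.86 and 5.39 in KO, a fall of 1.12 (SE 0.32, adjusted p = 0.0441). The groups did not overlap in any of the 3, which were picked because they passed, and the share of all genes without overlap was not counted. Tnnc1 moved the other way, higher by 1.43 (SE 0.41, adjusted p = 0.0458). WT replicate 2 was the array on which 11 of 16 skeletal members stood high, and it had a raised background. Without it Ckm differed by -1.78, Tnni2 by -1.32, Myl1 by -0.95 and Tnnc1 by 1.06, and none passed. Other arrays left out also ended calls here: Myl1 without WT replicate 1, Ckm, Myl1 and Tnnc1 without KO replicate 1, and all 4 genes without KO replicate 2. Markers of other cells differed in the same pair: 5 of 12 endothelial genes (median -0.71), 1 of 6 mesothelial genes (median -0.70) and 1 of 10 brown fat genes (median -0.43) were lower in KO. Their part in the member differences was not tested. With the medians of the other skeletal and other heart genes, outside the list, as covariates Ckm differed by -0.66, Tnni2 by -0.43 and Myl1 by -0.18. Of 58 alternatives, 18 ended the call of Myl1 and 31 that of Tnnc1 in this pair.

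The remaining 8 pairs gave 0 of 36 calls each. The share of all genes passing there was 0.124% in Eln AA and 0.0456% in Eln DA at E17.5, 0.613% in Efemp2 AA and 0.0391% in Efemp2 DA at E17.5, 0.0261% in Lox AA and 0.0130% in Lox DA at E17.5, and 0.606% in Lox AA and 0.261% in Lox DA at P1. In Eln DA at E17.5 the 14 skeletal members tested had a median difference of 1.11, and replicate 1 of KO was the array on which many of them stood high. Without it the median was 0.36. In Lox AA at E17.5 the heart members had a median difference of 0.96, with Myh6 at 4.0 and 4.50 in WT and 6.93 and 5.41 in KO. These shifts did not pass for any single gene. At an unadjusted p under 0.05, 6 members were higher and 0 lower in Eln DA at E17.5 (all genes 3.19%). In Lox AA at E17.5 9 were higher and 1 lower (5.67%). Also at E17.5, the counts were 1 and 0 in Eln AA (3.6%) and 2 and 0 in Efemp2 AA (7.43%). Efemp2 DA had 1 and 2 (6.16%) and Lox DA 3 and 0 (3.94%). At P1 Lox AA had 1 and 3 (10.5%) and Lox DA 0 and 0 (8.29%).

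**Figure D4:**
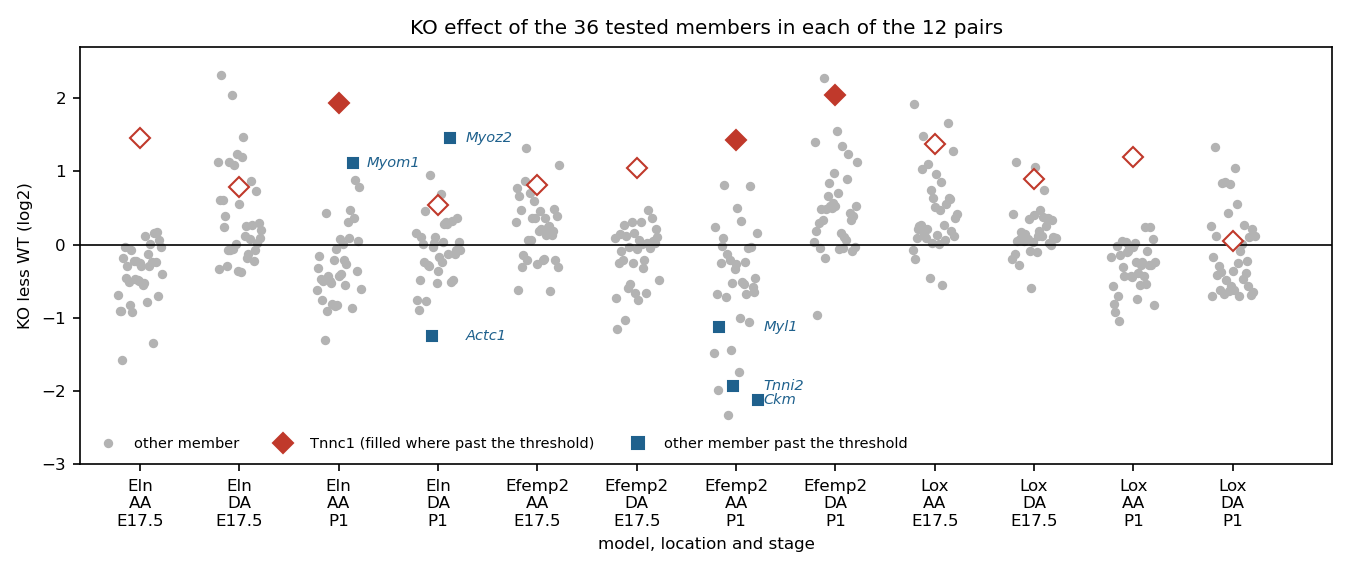
KO less WT (log2) of the 36 tested members in the 12 pairs of model, location and stage. Diamonds are Tnnc1, filled where it passed; squares are other members that passed; grey points are the rest. Tnnc1 is above 0 in 12 of 12 pairs, while the other members scatter on both sides.

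No member passed for a difference of its KO effect between models, locations or stages. Between models 0 of 36 passed in Efemp2 less Eln, Lox less Eln and Lox less Efemp2, where 0.554%, 0.509% and 0.0261% of all genes did. The unadjusted p was under 0.05 for 2, 1 and 0 members and for 8.03%, 13.2% and 10% of all genes. Between DA and AA 0 of 36 passed in Eln, Efemp2 and Lox, against 5.24%, 0% and 0% of all genes, with 8, 1 and 0 members and 26.2%, 6.23% and 1.69% of all genes at an unadjusted p under 0.05. The smallest adjusted p was that of Acta1 in Eln (0.0586). At E17.5 alone this difference had an unadjusted p under 0.05 for 9, 1 and 0 members, and none passed. Of all genes 2.31%, 4.46% and 3.44% were at that level. The 9 in Eln all had a higher KO effect in DA. Replicate 1 of Eln KO DA, where many skeletal members stood high, enters that comparison. Between P1 and E17.5 0 of 36 passed, against 0.567%, 1.33% and 0.0978% of all genes, with 1, 4 and 10 members and 15.6%, 16.8% and 11.6% of all genes at an unadjusted p under 0.05. The 10 in Lox all had a lower KO effect at P1. Leaving out 1 array gave at most 1 call in either set: Myh6 in Efemp2 less Eln without Efemp2 KO AA replicate 1 at E17.5 (1.46), Acta1 between DA and AA in Eln without any of 6 arrays (2.23 to 2.68), Tnnc1 there without Eln WT DA replicate 1 at P1 (-1.40), Myom1 between stages in Eln without Eln WT DA replicate 2 at P1 (0.93) and Tnnt2 between stages in Efemp2 without Efemp2 WT DA replicate 1 at P1 (1.62). The 6 arrays were Eln WT AA replicate 1 and Eln KO DA replicate 2 at E17.5 and both WT AA arrays of Efemp2 and of Lox at P1, of which only the first pair are in the comparison itself.

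The comparison of DA with AA asked how the members differ along the WT aorta. At E17.5 4 of 36 were lower in DA and 0 higher, averaged over the 3 models, where 1.34% of all genes were lower and 2.21% higher. The 4 were Myl2, the ventricular and slow skeletal regulatory light chain, Myl3, Myh7 and Tnnt2. All are used by ventricular muscle, a grouping made after the values were seen. Tnnt2 is also used by atrial muscle. Other members that ventricular muscle uses did not all follow. For Tnni3, DA less AA was 0.51 in Eln, -1.02 in Efemp2 and 0.70 in Lox WT. Ttn gave 0.78, -0.94 and 1.41 in the same order, and Casq2 0.78, -1.30 and 0.94.

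Myl2 read 5.85 and 5.98 in AA and 4.50 and 4.89 in DA of Eln WT, 6.73 and 6.37 against 5.16 and 5.78 in Efemp2 WT, and 4.93 and 5.13 against 4.36 and 4.57 in Lox WT. Myl3 read 6.46 and 6.44 in AA and 4.99 and 5.35 in DA of Eln WT, 7.37 and 7.55 against 5.46 and 6.43 in Efemp2 WT, and 5.27 and 4.78 against 4.45 and 4.46 in Lox WT. The DA arrays lay below the AA arrays of the same model without overlap for both genes. Myh7 read 6.28 and 5.97 in AA and 4.59 and 4.65 in DA of Eln WT, 7.94 and 5.91 against 5.01 and 5.74 in Efemp2 WT, and 5.18 and 5.40 against 4.78 and 3.96 in Lox WT. Tnnt2 read 10.77 and 10.75 against 10.53 and 9.82, 10.82 and 10.57 against 8.84 and 8.96, and 9.44 and 9.93 against 9.18 and 8.06. These groups did not overlap either in any of the 3 models. The share of all genes that separated in this way was not counted, so no background stands beside it.

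On average Myh7 was 1.32 lower in DA (SE 0.27, adjusted p = 0.00195), Tnnt2 1.15 lower (SE 0.25, adjusted p = 0.00406), Myl3 1.12 lower (SE 0.23, adjusted p = 0.00197) and Myl2 0.96 lower (SE 0.20, adjusted p = 0.00222). None of the 59 alternatives ended any of these calls. The KO arrays, which share no array with this comparison, were then examined in the same way. There DA less AA was -1.45 for Tnnt2 (SE 0.25, adjusted p = 0.000314), -0.98 for Myh7 (SE 0.27, adjusted p = 0.0343), -0.97 for Myl2 (SE 0.20, adjusted p = 0.00218) and -0.92 for Myl3 (SE 0.23, adjusted p = 0.0147). In the KO arrays 4 of 36 members were lower, the same 4, and 1 was higher, against 0.841% and 2.28% of all genes. The higher one was Myh3, the embryonic skeletal myosin heavy chain (1.30, SE 0.32, adjusted p = 0.0147). Both KO DA arrays were below both KO AA arrays in 3 of 3 models for Myl2 and Tnnt2, in 2 for Myl3 and in 1 for Myh7. Here too the share of all genes was not counted.

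For Myl7 at E17.5, DA less AA was 1.56 in Eln, 1.61 in Lox and -0.67 in Efemp2 WT. Myh6 gave 1.39, 2.03 and -0.66 in the same order. Neither passed in the average of the 3 models. Other heart genes included 4 that were lower in DA, Pln (-1.43), Tbx20 (-1.35), a cardiac transcription factor, Popdc2 (-1.12), a membrane protein of heart and muscle, and Corin (-1.09), and 1 that was higher, Gja5, a gap junction protein of atrial muscle and arterial endothelium. Hspb7 (-1.28) and Trim63 (-0.59), a muscle ubiquitin ligase, were the genes of both muscles outside the list that were lower. The median of the other heart genes, less the mean of model and stage, ran from -0.31 to 0.09 in WT AA and from -0.25 to 0.35 in WT DA arrays at E17.5. Markers of other cell types also moved with location. Of 6 neuron and chromaffin genes 6 were higher in DA (median 1.70), led by Dbh (2.89), dopamine beta-hydroxylase, and Tubb3 (2.83), neuronal tubulin. Their median level ran from -1.75 to -0.73 in WT AA and from -0.53 to 2.28 in WT DA arrays. Of 12 endothelial genes 6 were higher, led by Kdr (1.25) and Vwf (1.19), and their median level ran from -0.84 to -0.10 in WT AA and from 0.27 to 0.66 in WT DA arrays. The arrays of AA and DA did not overlap for either list. The part of these lists in the differences of Myl2, Myl3, Myh7 and Tnnt2 was not tested.

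At P1 2 members were higher and 7 lower in WT DA, where 4.96% and 4.72% of all genes were. Myl7 was higher by 1.70 in Eln, 1.11 in Efemp2 and 1.26 in Lox WT, 1.35 on average (SE 0.40, adjusted p = 0.0291). Myh6 was higher by 0.92, 0.88 and 1.61, 1.14 on average (SE 0.37, adjusted p = 0.0463). The KO arrays gave 1.75 for Myl7 (SE 0.40, adjusted p = 0.00851) and 1.34 for Myh6 (SE 0.37, adjusted p = 0.0371), where 2.32% of all genes were higher. Both genes were higher in DA in 6 of 6 comparisons at P1, 3 of WT and 3 of KO. How many of all genes were so was not counted. Without the 4 arrays of raised background both WT calls were lost. The average, then over the Efemp2 and Lox models, was 1.22 for Myl7 and 1.18 for Myh6. In WT arrays Myl7 lost its call in 10 and Myh6 in 34 of 59 alternatives. The count of 9 calls fell to between 2 and 5 without Eln WT AA replicate 1, Efemp2 WT AA replicate 1, Efemp2 WT DA replicate 2 or any of the 4 Lox WT arrays of that stage.

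The 7 lower members at P1 were Tnnt3 (-1.41, SE 0.33, adjusted p = 0.00584), Acta1 (-1.36, SE 0.41, adjusted p = 0.0336), Tnni2 (-0.94), Tnnt2 (-0.79), Myl3 (-0.79), Myl2 (-0.69) and Actn3 (-0.51). Acta1 differed by -3.22 in Efemp2, -1.41 in Eln and 0.54 in Lox WT, and Tnnt3 by -2.94, -1.06 and -0.25. Actn3, fast skeletal alpha-actinin, differed by -0.87, -0.72 and 0.05 in the same order. Whether these differences varied between models was not tested. Acta1 read 9.48 and 11.11 in Efemp2 WT AA, the second on the array already named, and 7.40 and 6.75 in Efemp2 WT DA. Without the 4 arrays of raised background the average, then over the Efemp2 and Lox models, was -1.14 for Tnnt3 and -0.77 for Acta1, and neither passed.

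In the KO arrays at P1 DA less AA was 0.40 for Acta1, 0.36 for Tnni2 and 0.19 for Tnnt3, none of which passed, and 1 member was lower, Myom1 (-0.49, SE 0.14, adjusted p = 0.0466), against 0.724% of all genes. Whether KO and WT differ here was tested within each model at P1: 0 of 36 passed, against 12.8% of all genes in Eln, 0.0196% in Efemp2 and 0% in Lox. At an unadjusted p under 0.05 there were 3, 7 and 0 members and 30.4%, 7.98% and 0.652% of all genes. In Efemp2 the KO effect in DA less that in AA had a median of 0.95 over members and 0.01 over all genes. There 34 of 36 members lay above the latter. Replicate 2 of Efemp2 WT AA, where many skeletal members stood high, enters that comparison. Markers of brown fat moved with the WT difference. Of 10 tested, 4 were higher in WT DA at P1, led by Ucp1 (2.01), the uncoupling protein, and the list median, less the mean of model and stage, ran from -0.51 to 2.04 in WT AA and from -0.47 to 1.51 in WT DA. Of 18 other skeletal genes 1 was lower, Mylpf (-1.54), the fast regulatory light chain, and of 17 other heart genes Corin (-1.16), Popdc2 (-1.02), Hand2 (-1.0) and Tbx20 (-0.90) were lower. The part of these lists in the member differences was not tested.

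**Figure D5:**
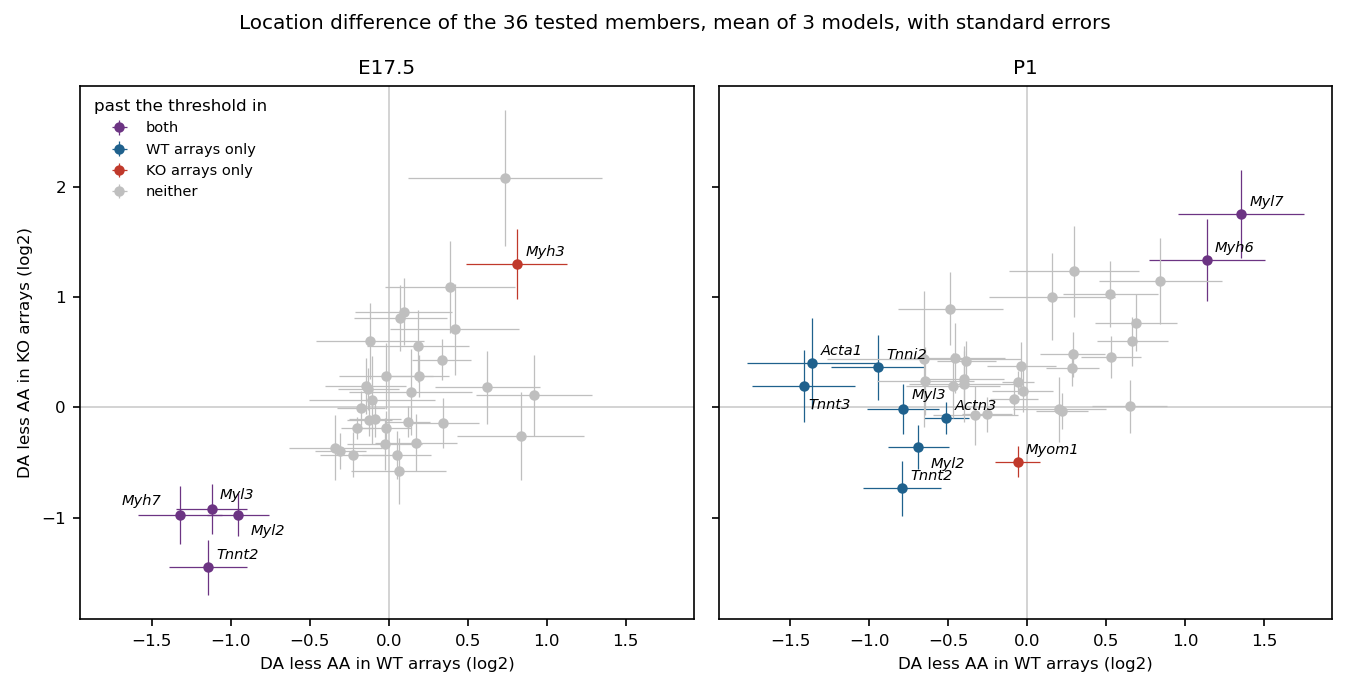
DA less AA (log2, mean of 3 models, bars are SE) of the 36 tested members in WT arrays (horizontal) and KO arrays (vertical), at E17.5 (left) and P1 (right). Colours show in which arrays a gene passed. Myl2, Myl3, Myh7 and Tnnt2 passed as lower in both at E17.5, and Myl7 and Myh6 as higher in both at P1.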

How the data were processed

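Log2 signals of 41345 probe sets on 48 arrays were used as the authors deposited them, made with RMA in Affymetrix Expression Console per the submitters' processing notes. Software versions, array type and genome build: not given in the sources used here. Of the probe sets, 23521 carried 1 gene symbol, 1814 several and 16010 none, and 23328 matched RefSeq by gene ID. A gene was read from its highest-mean single-symbol probe set and tested where 1 group mean reached 4.94, the median of all single-symbol values, which left 15337 of 22180 genes.

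The software was R 4.3.3 and limma 3.58.1 (lmFit, eBayes). One linear model held a mean per group and left 24 residual degrees of freedom, and p values were adjusted by Benjamini-Hochberg over all tested genes. Each KO group was set against the WT group of like model, location and stage, in single pairs and averaged over 4 pairs. Effects were compared between models, locations and stages, and DA with AA in WT arrays. The comparison of DA with AA in KO arrays was added after the WT values were seen. The fit was checked on simulated data.

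The members and lists were chosen with earlier results of these data known. By the rule for named genes, a member is given on every array where it passed in an averaged KO comparison or is Tnnc1, and up to 4 genes of any other list by size of difference. Other members are named by role, and those with location or single-pair calls are given in more detail. Alternatives were no filter, cyclic loess, mean of all probe sets, own arrays only, trend and robust variances, a replicate block (statmod 1.5.0), covariates, and leaving out arrays. The replicate numbers did not pair KO with WT arrays: the correlation of their deviations ran from -0.23 to 0.20 over 12 pairs, above 0.1 in 3.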

Additional observations from a re-analysis of the deposited data

How the results depend on the processing

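Skeletal and heart medians used as covariates, or muscle medians, are here those of the other skeletal and other heart genes outside the list. Counts of member calls kept within 1.5 times in the other settings except as follows. The count in Eln KO was 2 with the skeletal and heart medians as covariates (Actc1 added) and ran from 1 to 2 when single arrays were dropped. That in Efemp2 KO then ran from 1 to 3. In Lox KO it was 0 with array background as a covariate, 3 with the muscle medians (Mybpc1 and Tnnc2 added) and 0 to 1 with 1 array left out, and the Tnnc1 difference was 0.68 with background and 0.78 to 0.97 with 1 array left out. The 9 single-pair calls became 5 with each comparison fitted on its own arrays alone, 4 with background and 5 to 13 with 1 array left out. Differences between models gave 2 calls with the muscle medians and 0 to 1 with 1 array left out. Differences between locations or stages gave 1 with cyclic loess (Myom1), 1 with own arrays (Acta1), 1 with background (Tnnt2), 2 with the muscle medians (Acta1 and Actn2) and 0 to 1 with 1 array left out. The 9 calls of WT DA less AA at P1 became 1 with own arrays, 5 with trend and robust variances, 2 without the 4 arrays of raised background, 3 with KO arrays in place of WT arrays and 2 to 11 with 1 array left out. Without the 4 arrays of raised background, none of the 9 genes kept its call. The calls in that setting were of Actc1 (1.21) and Myl4 (1.05), both higher in DA and outside the 9. With KO arrays, an alternative chosen after seeing the data, Acta1 (0.40), Tnni2 (0.36) and Tnnt3 (0.19) changed sign. The causes of these changes were not tested, beyond fewer arrays where arrays were left out. The correlation of skeletal and heart members ran from 0.41 (without Efemp2 KO AA at E17.5) to 0.58 with 1 group left out. Where a group kept 1 array, it was assumed to vary like the others. Without the 4 arrays of raised background, the Eln average covered 3 pairs, and sums over all pairs, locations or stages were not available.

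The fit with a replicate block gave 7 single-pair calls and 8 at P1 in WT DA less AA; Tnnc1 kept its calls in the 3 averages (1.18, 1.34 and 0.88). Replicate numbers did not pair KO with WT arrays, and whether they pair AA with DA was not checked by itself. The random replicate block (correlation 0.03) gave 10 and 9. Low members are limited by array background: 7 of 38 exceeded the receptor level on under 24 arrays.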
